A study of Drosophila melanogaster with 6 samples.

Results

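The transcripts of 10 genes of ecdysone synthesis were followed through 6 RNA-seq libraries of whole lymph glands from Drosophila melanogaster larvae. Ecdysone is the insect moulting steroid. It is made from dietary sterol in the prothoracic gland, the steroid-producing part of the ring gland, an endocrine organ that lies on the dorsal vessel close to the lymph gland. The enzymes of the pathway are encoded by the Halloween genes, named for mutant embryos that die without a normal cuticle. Their products act in sequence, first on cholesterol in the endoplasmic reticulum and finally in the mitochondrion, and the ecdysone that leaves the gland is activated in other tissues. The neuropeptide PTTH drives the pathway through the receptor tyrosine kinase Torso.

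The 10 genes were taken by name from 17807 gene rows. They are the Halloween genes nvd, sro, spok, phm, dib and sad, the transcription factor genes ouib and mld, the receptor gene tor, and the sterol transport gene Npc1a. The Ensembl annotation lists phm (phantom) under the symbol phtm, and the row of nvd was found through its transcript. Each gene was detected at TPM of at least 1 in all 6 libraries. TPM is a level relative to all transcripts of the library and corrected for transcript length, so it can be compared between genes.

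The larvae, at the third instar, were wild type in all 6 libraries, with a background of BL-30140 crossed with w1118, and were raised at 25 degrees C on semi-defined medium. No group was treated. The labels name 2 experimenters with 3 libraries each, called set B and set A here, and the series text describes the 6 libraries as biological replicates made from 200 ng of RNA. Total expected counts were between 18689689 and 24804853 in set B and between 20082235 and 26003822 in set A. Whole organs were dissected, so the RNA may hold tissue that adheres to the lymph gland, and the labels do not say how much of the ring gland or dorsal vessel was kept. Genes of blood cells were abundant in every library: the summed TPM of 8 lymph gland and hemocyte markers was 14701 to 16955 in set B and 14527 to 20640 in set A. Markers of tissues outside the lymph gland stood apart in single libraries. Summed salivary gland markers reached 4736 TPM in set B replicate 2, summed fat body markers 397 TPM in set A replicate 3, and summed muscle markers 1099.6 TPM in set B replicate 3.

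The genes lie on 5 chromosome arms, and nvd, mld and spok span the longest stretches among them. Positions are from the Ensembl annotation of BDGP6.54. The submitters' processing notes name the build BDGP6. The nvd gene (FBgn0259697 in the tables) spans 76790 nt at 24324866 to 24401655 of arm 3L, of which 1722 nt are exonic, with a longest intron of 34792 nt. The spok gene (FBgn0086917) spans 31677 nt at 3322810 to 3354486 of 3R, with 1767 exonic nt in 2 exons and a single intron of 29910 nt. The other enzyme genes are compact. They are phm (FBgn0004959) at 18685766 to 18688433 of X, sad (FBgn0003312) at 11877235 to 11879754 of 3R, sro (FBgn0262112) at 29794597 to 29795805 of 3R, and dib (FBgn0000449) at 4062292 to 4064551 of 3L. Outside the enzymes, ouib (FBgn0037618) lies at 8725479 to 8726730 and mld (FBgn0263490) at 24585653 to 24623899 of 3R (a span of 38247 nt), tor (FBgn0003733) at 7705183 to 7709184 of 2R, and Npc1a (FBgn0024320) at 10213812 to 10221216 of 2L. RSEM gave a posterior standard deviation of 0 for the counts of all 10 genes in all 6 libraries, so RSEM left no uncertainty in assigning the reads it counted.

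Exons of sro, dib, sad and mld overlap exons of a gene on the opposite strand, by 109, 400, 53 and 98 nt. The sources used here do not state whether strand was used in counting, which decides how reads of an overlap are assigned. The posterior standard deviation was 0 for these 4 genes too. The partner of dib, the receptor gene wit, overlaps 20.3% of the exonic length of dib. Its own level was 1.06 to 3.48 TPM, below the lowest value of dib. The partners of sro and sad (Rnb and CG6962) stayed between 6.89 and 12.2 TPM, while sro and sad were never below 69.7 TPM. The partner of mld, Syx18, was at 26.02 to 31.96 TPM, above mld itself, and shares 1.33% of its exonic length.

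The enzymes of the first, cholesterol-processing steps were present at very different levels. The gene nvd encodes Neverland, a Rieske oxygenase that desaturates cholesterol as the first step of the pathway. It was at 58.3, 93.7 and 76.3 TPM in set B replicates 1, 2 and 3, and at 113, 33.2 and 44.9 TPM in set A replicates 1, 2 and 3. Set A replicate 1 was the highest and set A replicate 2 the lowest, so the values of set B lay inside those of set A.

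The steps that follow, known as the Black Box because their intermediates are poorly known, involve the short-chain dehydrogenase Shroud and the P450 Spookier. Shroud is encoded by sro, at 105, 164 and 117 TPM in set B and 171, 74.8 and 69.7 TPM in set A. Spookier is encoded by spok, the larval counterpart of the embryonic and ovarian gene spo. It was the most abundant of the 10 genes, at 501, 990.0 and 601 TPM in set B and 967, 358 and 299 TPM in set A. Both genes were high in set B replicate 2 and set A replicate 1 and lowest in set A replicate 3. The paralog spo was listed at 0 counts in all 6 libraries.

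The last hydroxylations are carried out by the P450s Phantom, in the endoplasmic reticulum, and Disembodied and Shadow, in the mitochondrion. The Phantom gene phm was at 544, 815 and 534 TPM in set B and 921, 339.7 and 348 TPM in set A. For sad, which encodes Shadow, the values were 354, 752 and 421 TPM in set B and 795, 258 and 214 TPM in set A. Both repeated the order seen for spok in that set B replicate 2 and set A replicate 1 were the highest and the other set A libraries the lowest. The Disembodied gene dib was far lower, at 19.7, 53.9 and 23.8 TPM in set B and 84.85 (set A replicate 1), 16.4 and 9.82 TPM in set A. Its highest value was 8.64-fold its lowest, against 2.46-fold to 3.71-fold for the other 5 enzymes.

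Npc1a, ouib, mld and tor supply or control the enzymes. Npc1a encodes an endosomal protein that releases cholesterol for use in the cell. Its values were 137, 278 and 150.5 TPM in set B and 421, 110.2 and 98.2 TPM in set A, with set A replicate 1 the highest. The zinc-finger factor genes ouib and mld act on spok, and mld on nvd too. Ouib transcripts were at 15.9, 19.3 and 13.3 TPM in set B and 16.2, 8.38 and 7.54 TPM in set A, where set B replicate 2 rather than set A replicate 1 was the highest. For mld the values were 9.23, 10.5 and 7.80 TPM in set B and 9.43, 7.20 and 7.20 TPM in set A, a range of only 1.46-fold. The receptor gene tor was the lowest of all, at 2.08, 2.90 and 1.98 TPM in set B and 4.28, 1.17 and 1.38 TPM in set A. It rested on 70 to 288 counts per library. The exact 95% Poisson interval of the lowest count was 54.6 to 88.4 and that of the highest 256 to 323, so the difference between these libraries was larger than counting error.

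**Figure D1:**
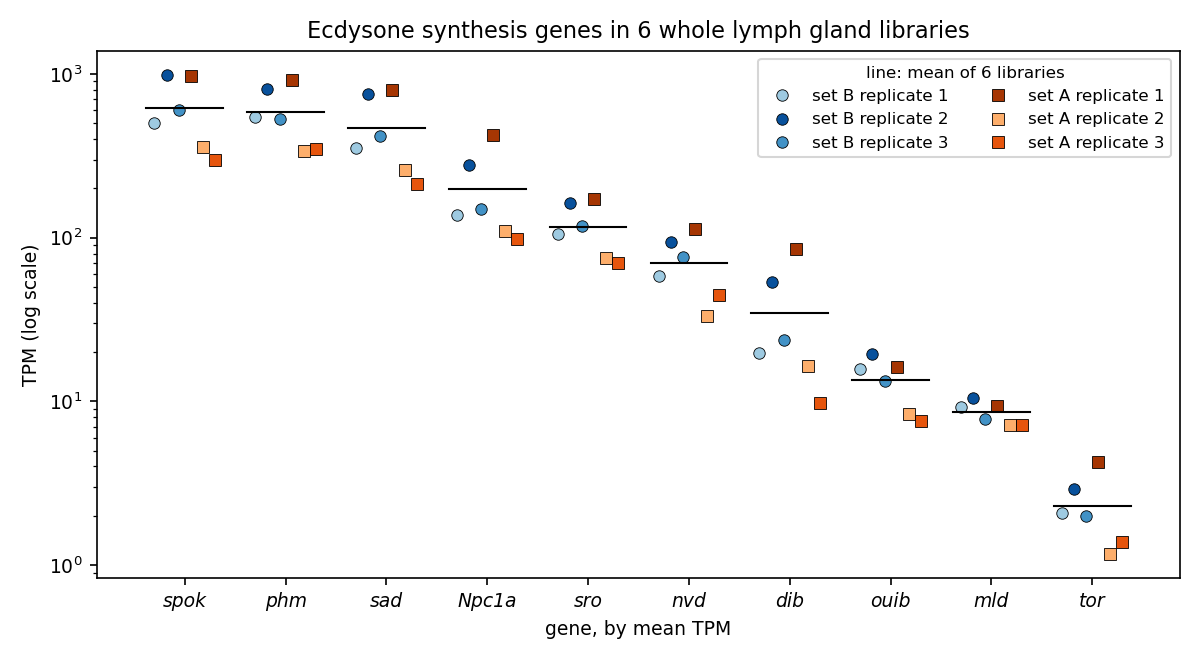
TPM on a log axis of the 10 ecdysone synthesis genes in each library, with circles for set B, squares for set A and a line at the mean of 6 libraries. Set B replicate 2 and set A replicate 1 are the 2 highest libraries for all 10 genes. For ouib and mld, set A replicate 1 (16.23 and 9.43 TPM) is barely above set B replicate 1 (15.87 and 9.23 TPM). The order of the genes runs from spok at a mean of 619 TPM to tor at 2.30 TPM.

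Over all 6 libraries the means fell into an order that was nearly the same in every library. It ran spok (619 ± 298 TPM, SD, n = 6, as for the others), phm (584 ± 239), sad (466 ± 249.6), Npc1a (199 ± 126), sro (117 ± 43.1), nvd (69.9 ± 30.3), dib (34.7 ± 28.9), ouib (13.4 ± 4.67), mld (8.56 ± 1.36) and tor (2.30 ± 1.14). Ratios within a library set these apart more finely than the means. Only the first 2 neighbours did not differ beyond their spread, since spok was above phm in 4 of 6 libraries, at a ratio of 0.861 to 1.21. Every other gene was above the next in all 6 libraries. The closest of these was ouib over mld, at 1.05-fold in the lowest library. By mean TPM, spok ranked 198, phm 208 and sad 249 among the 17807 genes, while tor ranked 7431.

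Taken as a sum, the 6 enzyme genes held a share of the transcript pool that varied 3.10-fold between libraries. The summed TPM was 1582, 2869 and 1773 in set B replicates 1, 2 and 3 and 3052 (set A replicate 1), 1080.2 and 986 in set A. This is 0.0986% to 0.305% of all TPM. The means were 2075 ± 694 TPM in set B and 1706 ± 1167 TPM in set A (SD, n = 3 each), a difference smaller than the spread inside either set. In bulk RNA, more cells of the gland and more RNA per cell cannot be told apart.

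Within that sum the proportions of the enzymes were much steadier than the sum itself. Each gene is part of the sum that its share is taken of, which in itself narrows the shares of the larger ones. The share of spok was 32.5% ± 1.56, that of phm 31.6% ± 2.67, that of sad 24.0% ± 1.84, that of sro 6.42% ± 0.618 and that of nvd 3.76% ± 0.574 (SD, n = 6). On the log2 scale, the SD of the spok share was 0.069, against 0.72 for the spok level. The same 2 values were 0.11 and 0.78 for sad, 0.12 and 0.60 for phm, 0.14 and 0.55 for sro, and 0.22 and 0.67 for nvd. For ratios between genes, which do not hold the sum, the log2 SD was 0.18 for spok over phm and 0.23 for phm over sad. The exception was dib, whose share was 1.24%, 1.88% and 1.34% in set B and 2.78%, 1.52% and 0.996% in set A. Its share had an SD of 0.52 in log2, which was 0.34 without set A replicate 1.

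**Figure D2:**
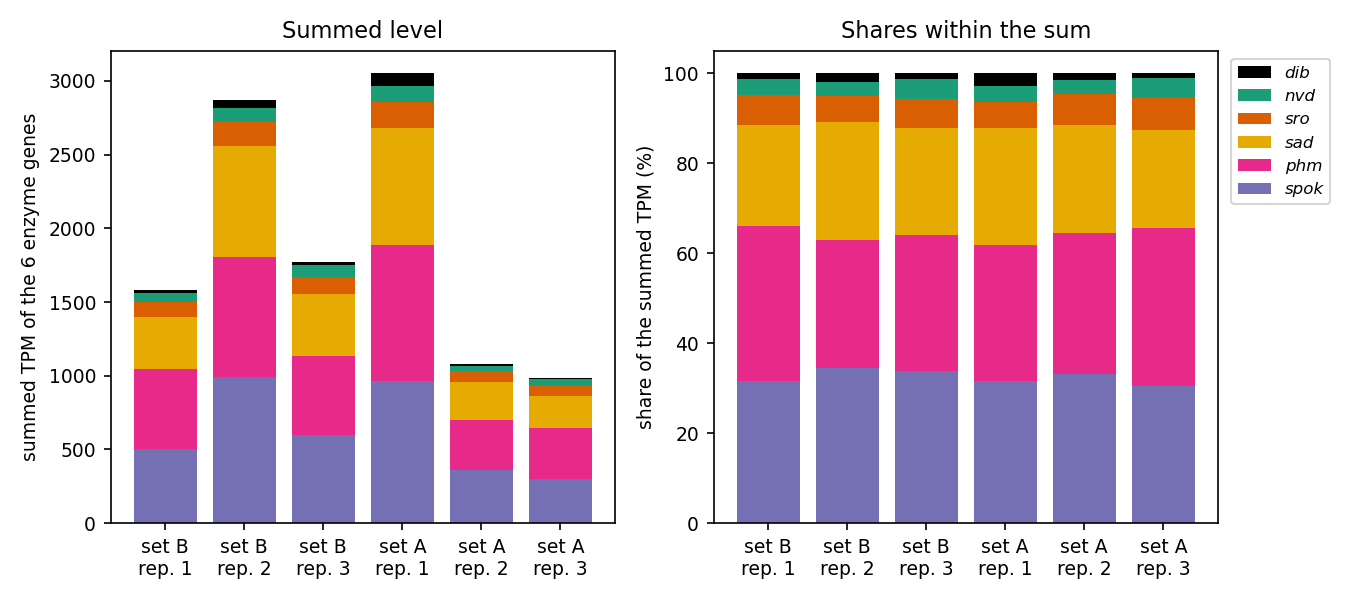
Left, summed TPM of the 6 enzyme genes in each library, stacked by gene. Right, the same values as a percentage of the sum; the sum ranges from 986 to 3052 TPM, while spok, phm and sad keep 30.4% to 34.5%, 28.4% to 35.3% and 21.7% to 26.2% of it.

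The genes outside the enzyme set followed the enzyme sum to different degrees. Expressed as a percentage of the enzyme sum, tor ranged from 0.101% to 0.140%, or 1.39-fold, although its level ranged 3.66-fold. Npc1a was at 8.49% to 13.8% of the sum, or 1.63-fold, and was highest in set A replicate 1. The ouib ratio varied 1.89-fold, from 0.532% in set A replicate 1 to 1.003% in set B replicate 1. For mld the ratio varied more (2.36-fold) than the level did (1.46-fold). The level of mld was highest in the same 2 libraries as the enzyme sum, but over a narrower range. Its level in set A replicate 1 (9.43 TPM) was barely above that in set B replicate 1 (9.23 TPM).

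Against other genes, this spread between libraries of the same genotype was wide. Among 6767 genes with a mean TPM of at least 5, the median SD of log2(TPM + 1) was 0.13 and the 90th percentile 0.39. It was 0.63 as the median of the 10 ecdysone synthesis genes and 0.68 as that of the 6 enzymes. The SD was 1.11 for dib, 0.82 for Npc1a, 0.78 for sad, 0.71 for spok, 0.65 for nvd, 0.60 for phm, 0.54 for sro, 0.51 for ouib and 0.47 for tor, all 9 above the 90th percentile of all genes. The value of mld, 0.20, exceeded that of 74.6% of genes. The pseudocount of 1 lowers the SD of tor, whose mean TPM is under the minimum of 5. These are descriptions of 10 genes that act in the same gland, with no test. Wide spread was not limited to them. The median SD was 0.86 for corpora cardiaca markers, 0.91 for neural, 1.04 for muscle, 1.06 for tracheal, 2.03 for fat body and 2.92 for salivary gland markers. It was 0.39 for heart markers and 0.20 for those of the corpora allata and of lymph gland and hemocytes.

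**Figure D3:**
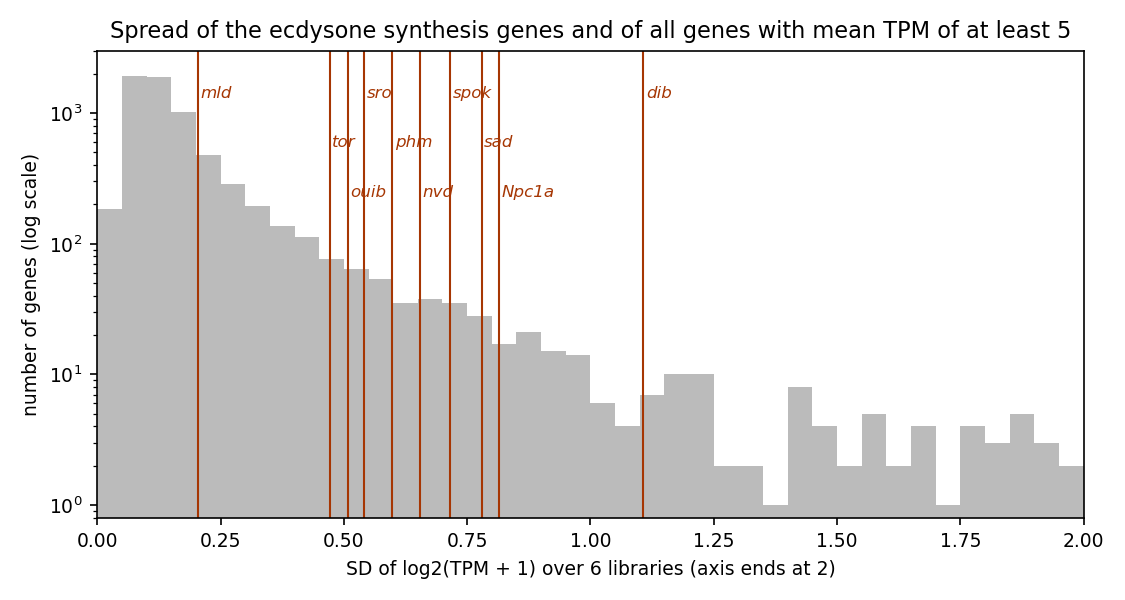
Grey bars count the 6767 genes with a mean TPM of at least 5 by the SD of log2(TPM + 1) over 6 libraries, on a log axis; lines mark the 10 ecdysone synthesis genes. All but mld lie to the right of 0.39, the 90th percentile.

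The comparison of set B with set A asks whether the gland's transcripts differed between experimenters by more than within a set. With edgeR's quasi-likelihood test, 0 of the 10 genes had an adjusted p under 0.05, as did 0 of all 8491 genes tested (0%). At an unadjusted p under 0.05 the counts were 0 of 10 and 353 of 8491, or 4.16%. DESeq2 called 0 of the 10 and 22 of 8434 genes, or 0.261%. Library values that did not overlap between sets were found for 0 of the 10 and for 629 of 8491 genes, or 7.41%. The log2 fold change, set B over set A, was between -0.20 for dib and 0.57 for ouib, 8 positive and 2 negative, with a median of 0.23 against -0.0045 over all genes.

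The sizes of these differences were poorly determined. The median standard error was 0.48 for the 10 genes and 0.13 for all genes tested. The smallest unadjusted p belonged to ouib, which averaged 16.2 ± 3.01 TPM in set B and 10.7 ± 4.79 TPM in set A (SD, n = 3 each). Its log2 fold change was 0.57 (SE 0.32), with an edgeR adjusted p of 0.9997. All 3 set B libraries lay above the set A mean, while the ranges overlapped. For spok the log2 fold change was 0.35 (SE 0.50) and for dib -0.20 (SE 0.85), with the same adjusted p. The direction depended on 1 library for several genes. Without set A replicate 1, the fold changes were between 0.31 for mld and 1.25 for dib, and the smallest edgeR adjusted p among the 10 was 0.607. Between 0.53% (Npc1a) and 43.4% (ouib) of the log2 variance lay between the sets. With 3 libraries per set, some share arises without any difference between sets, and the unadjusted edgeR p of ouib was 0.118.

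**Figure D4:**
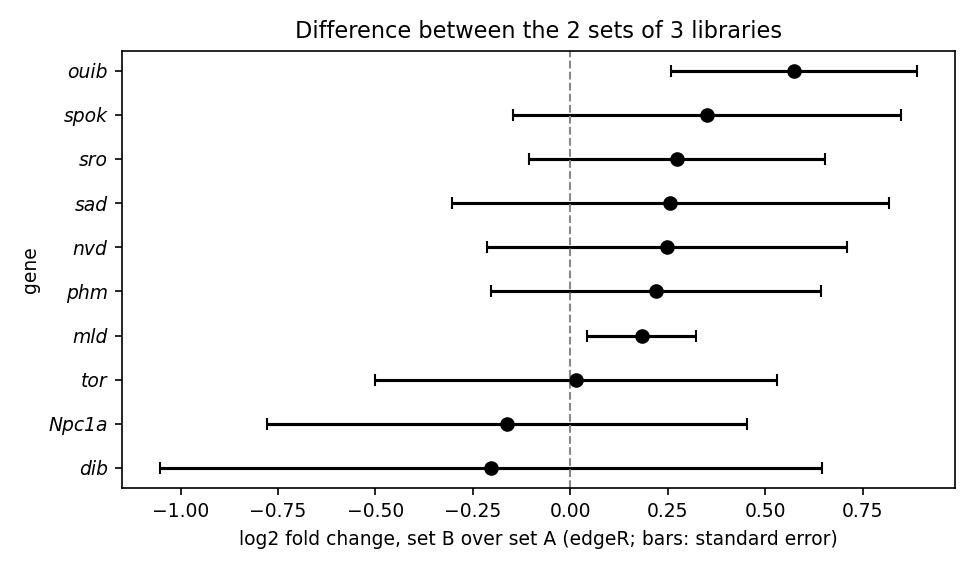
edgeR log2 fold change of each gene, set B over set A, with bars of 1 standard error. The error was worked out from the fold change and the test's F statistic, so the bars restate the test. The points lie between -0.20 for dib and 0.57 for ouib, and the bars cross 0 for all genes but ouib and mld, of which neither passed the test.

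Some genes outside the 10 had nearly the same profile over the 6 libraries. Each gene's log2(TPM + 1) was centred on its own mean, and genes were ranked by the root mean square distance to the mean centred profile of the 6 enzymes. That profile was -0.17, 0.73 and 0.05 in set B replicates 1, 2 and 3, and 0.93, -0.69 and -0.84 in set A. The median distance over 6758 candidate genes with mean TPM of at least 5 was 0.66. The nearest was GstE14, at a distance of 0.11. It encodes Noppera-bo, a glutathione S-transferase known from work in Drosophila to be needed for sterol use in the prothoracic gland. GstE14 was at 54.1, 122 and 72.4 TPM in set B and 113, 42.2 and 36.4 TPM in set A. That it was high in the same libraries as spok follows from how it was picked.

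Close to GstE14 came the small heat shock gene Hsp23 (distance 0.12), CG4408 (0.12) and vvl (0.13). The POU factor gene vvl is a known activator of the enzyme genes in the prothoracic gland, and was at 16.6, 25.7 and 16.1 TPM in set B and 27.8, 9.42 and 7.44 TPM in set A. Its ratio to the enzyme sum varied 1.39-fold, a narrow range that its place near the enzyme profile already implies. The other 11 of the 15 nearest were CG33120, Hsp27, CG10337, osy, CG44325, CG15201, CG17549, CG6891, CG13893, fus and Cln7, at distances of 0.15 to 0.21, where the sixteenth gene also stood at 0.21. Exons of Hsp27, CG10337, CG6891, CG13893, fus and Cln7 overlap a gene on the opposite strand, and those of CG44325 a gene on the same strand. The list depended on the libraries: without set A replicate 1 only 6 of the 15 were found again, and GstE14 and Hsp23 were the only genes kept under all 9 alternatives tried. The first place of GstE14 was not fixed. Its order was 13 with Pearson correlation as likeness, 8 without set A replicate 3 and 7 without set B replicate 3. In the other alternatives it stood between 1 and 3.

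**Figure D5:**
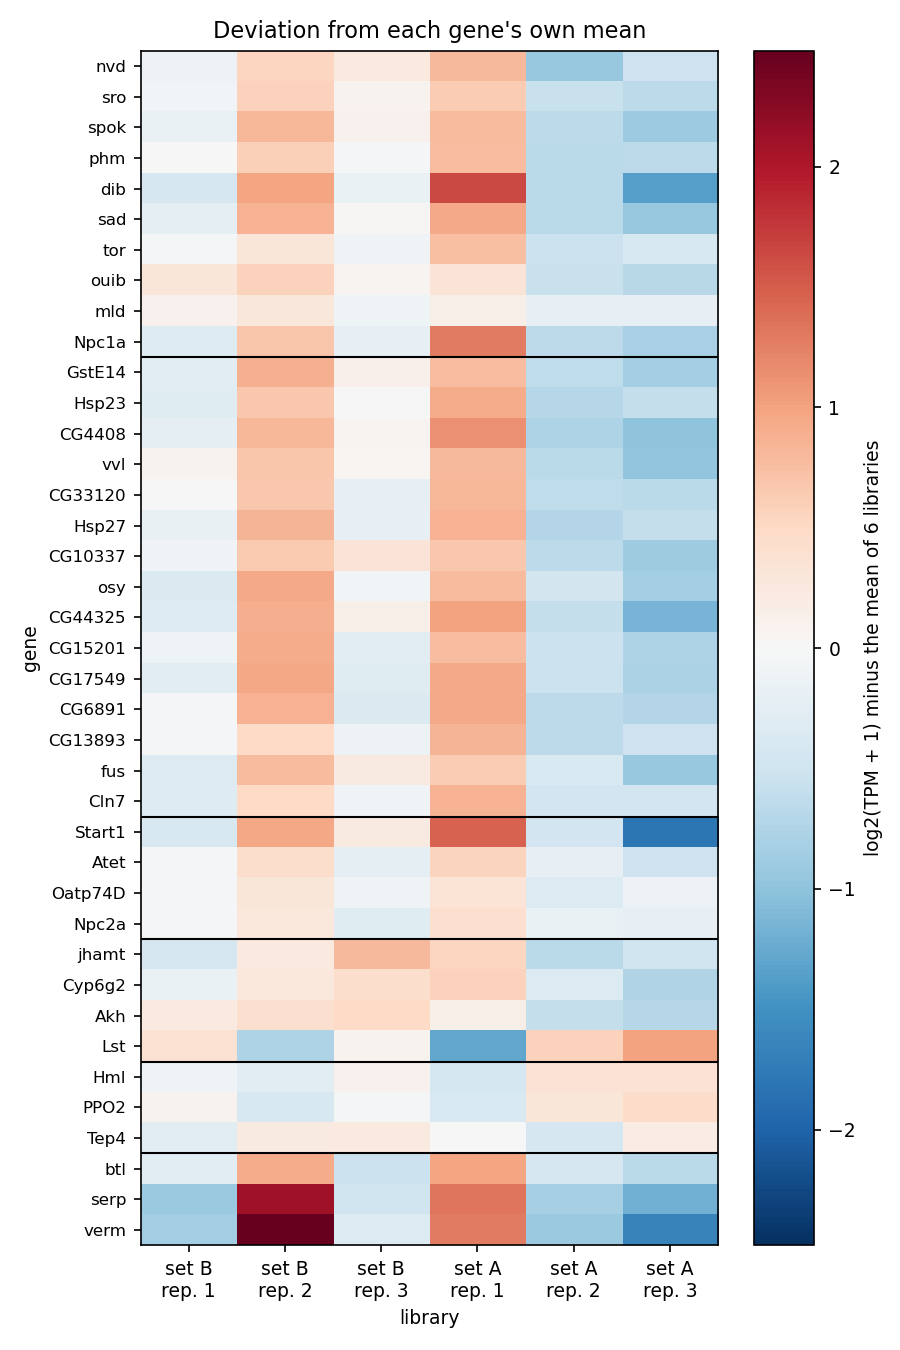
Log2(TPM + 1) minus each gene's mean over 6 libraries, as colour, with libraries in columns. From the top, blocks hold the 10 ecdysone synthesis genes, the 15 genes nearest to the enzymes, 4 sterol and ecdysone transport genes, 4 corpora allata and corpora cardiaca genes, 3 lymph gland genes and 3 tracheal genes. The first 2 blocks share high values in set B replicate 2 and set A replicate 1, and mld is the palest of the first block. The second block was picked by likeness to the enzymes, so its pattern follows from that choice.

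The rest of the pathway was read from lists of genes by role. None of the 79 genes tested, out of 89 on 15 lists, differed between sets with edgeR at an adjusted p under 0.05. At an unadjusted p under 0.05 there were 11, or 13.9%, against 4.16% of all genes. Of these, 8 were among the 12 markers of fat body, salivary gland, muscle and neural tissue. Each of the 8 was set apart by 1 high library. That library was set B replicate 2 for Sgs3, Sgs7 and Sgs8, and set A replicate 3 for Lsp2. It was set B replicate 3 for Mhc and Mlc2, and set B replicate 1 for elav and nSyb. The lists were written with earlier results of these data known, so 13.9% and 4.16% are not like for like. Of the 11, only 1, Npc2b, was among the 46 genes tested on the 6 lists of ecdysone synthesis, its supply and its control. The rest were the corpora cardiaca gene Akh, with a log2 fold change of 0.71, set B over set A, and the hemocyte marker NimC1, at -0.27. In the list of other ecdysone genes, the importer gene Oatp74D was at 158 to 205 TPM in set B and 132 to 211 TPM in set A. Atet, a transporter gene of ecdysone release, was at 13.8 to 22.3 TPM in set B and 10.9 (set A replicate 3) to 24.1 TPM in set A. Both were higher in set A replicate 1 and set B replicate 2 than elsewhere, over ranges of 1.60-fold and 2.20-fold. The gene of the activating enzyme Shade, shd, which acts outside the gland, was at 0.50 to 1.10 TPM. Genes of ecdysone breakdown were as low, with Cyp18a1 at 0.10 to 0.32 TPM and Eo at 0.21 to 1.08 TPM. Cyp6t3, on the same list but not a breakdown gene, had at most 1 count per library.

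Sterol supply genes split into those that varied with the enzymes and those that did not. Start1 encodes a StAR-like lipid transfer protein expressed in the prothoracic gland. It was at 129.6, 335 and 200.0 TPM in set B and 471, 123 and 48.9 TPM in set A, a 9.63-fold range, and its exons overlap those of SIFa on the opposite strand. Npc2a, which hands cholesterol to Npc1a, was at 409 to 609 TPM in set B and 441 to 674 TPM in set A. The sterol regulators Hr96 and SREBP were level, at 16.2 to 19.7 TPM and 56.1 to 67.4 TPM. Npc2b reached 7.86 TPM in set B replicate 2 and was at most 1.59 TPM elsewhere. Npc1b was at most at 0.06 TPM, and Npc2c, Npc2d, Npc2e and mag were listed at 0 in every library.

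Electron donors of the P450s were expressed without the range of the enzymes they serve. Adrenodoxin reductase, encoded by dare, was at 14.0 to 16.7 TPM and the ferredoxin gene Fdx1 at 11.2 to 13.8 TPM. Fdx2 was at 41.4 to 64.8 TPM in set B and 36.4 to 53.4 TPM in set A, and Cpr, the reductase of P450s in the endoplasmic reticulum, at 52.4 to 65.2 TPM over all libraries.

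Components of the PTTH and Torso pathway downstream of the receptor were found in every library, as they are in most cells. The list of 12 genes also holds Ptth, trk and tsl, which are not downstream of the receptor. Of the 12 genes, 11, all but Ptth, were at TPM of at least 1 throughout. Ras85D was at 82.7 to 109.1 TPM and rl, the ERK gene, at 62.2 to 67.6 TPM. The ligand gene Ptth, a neuronal gene, was at 0.53 to 1.68 TPM, on 7 to 31 counts. The gene tsl, known from embryos to act with Torso, was at 7.39, 14.0 and 9.04 TPM in set B and 9.92, 4.57 and 4.13 TPM in set A. Of other receptors that act in the gland, Octbeta3R, Lgr3, Pdfr and 5-HT7 were at 0.24 TPM or less, InR was at 5.03 to 8.55 TPM and babo at 28.6 to 31.4 TPM.

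Among other regulators of the enzyme genes, kni, Hr4 and Hr3 were scarce and br abundant. The nuclear receptor genes Hr4 and Hr3 had 0.17 to 0.31 and 0.27 to 0.52 TPM in set B. In set A, replicate 1 had 1.72 TPM of Hr4 and 1.57 TPM of Hr3, against at most 0.07 and 0.24 TPM in the other 2 libraries. The ecdysone-response gene br was at 92.4 to 174 TPM in set B and 88.1 to 229 TPM in set A, with set A replicate 1 again the highest, and its exons overlap those of Mur2B on the opposite strand. The competence factor gene ftz-f1 ran the other way, at 6.38 TPM in set A replicate 1 and up to 13.4 TPM in set A replicate 3.

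Markers of the other ring gland cells were present too, except that gl was at 0.04 to 0.11 TPM outside set B replicate 2 (4.12 TPM). Set B replicate 2 and set A replicate 1 were the 2 highest libraries for 0 of 5 corpora allata genes and 1 of 3 corpora cardiaca genes, gl. The same pair was highest for 9 of 13 other regulators and 5 of 7 other ecdysone genes. It was also highest for 5 of 12 PTTH and Torso pathway genes, Ras85D among them, and 2 of 4 electron donors. The count was 2 of 10 for sterol supply, 1 of 9 for other gland receptors and 0 of 8 for lymph gland and hemocyte markers. The share over all genes was not counted. For gl, set A replicate 1 (0.11 TPM) was barely above set B replicate 1 (0.10 TPM). The juvenile hormone enzyme gene jhamt, of the corpora allata, was at 12.1, 19.9 and 29.7 TPM in set B and 24.4, 10.1 and 11.5 TPM in set A, highest in set B replicate 3. Cyp6g2, a P450 gene of the corpora allata, came closer to the enzymes, at 17.7, 24.3 and 27.4 TPM in set B and 30.4 (set A replicate 1), 15.6 and 11.7 TPM in set A. The hormone gene Akh, of the corpora cardiaca, was at 152, 169 and 180.4 TPM in set B and 142, 84.7 and 77.9 TPM in set A. Lst, listed with Akh, was highest in set A replicate 3 at 73.0 TPM and lowest in set A replicate 1 at 14.2 TPM.

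Several markers of other tissues moved with the enzymes or against them, and their part in the results was not tested. All 4 tracheal markers (trh, btl, serp and verm) had their 2 highest values in set B replicate 2 and set A replicate 1. Their summed TPM was 4.52, 47.1 and 5.93 in set B and 25.2, 4.29 and 1.99 in set A, and none reached TPM of 1 in all libraries. Of the 8 lymph gland and hemocyte markers, Hml was at 791, 700.3 and 915 TPM in set B and 625.2, 1092 and 1083 TPM in set A. PPO2 was at 7949, 5682 and 7177 TPM in set B and 5730 (set A replicate 1), 9158 and 10170 TPM in set A. For 3 of the 8 markers, Hml, PPO2 and Pxn, set B replicate 2 and set A replicate 1 were the 2 lowest libraries. The other 5 (Tep4, He, srp, NimC1 and Ance) had other orders, and srp and NimC1 were highest in set A replicate 1. Summed heart markers (Hand and tin) were 122 to 164 TPM in set B and 80.2 to 119 TPM in set A, and summed neural markers 2.24 to 21.1 TPM in set B and 1.51 to 2.15 TPM in set A. For salivary gland, muscle and fat body, a single library held the highest sum, and in the other 5 libraries the sums were 13.8 to 75.4, 167 to 424 and 4.75 to 16.0 TPM.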

How the data were processed

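Expected counts and TPM were deposited by the authors as 1 RSEM gene table per library, per the file headers. Expected counts are estimated counts that are not normalized, and TPM is corrected for effective length. The submitters' processing notes name CASAVA 1.8.2, Trimmomatic 0.35, STAR 2.7.1a, RSEM 1.2.28 and BDGP6, and the labels' protocols give a stranded polyA kit. The annotation and the use of strand are not given in the sources used here.

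Of 17807 gene IDs, 17710 matched the Ensembl annotation of BDGP6.54 by gene ID, 56 by transcript ID (nvd among them) and 41 were unmatched. Expected counts were rounded to whole numbers for edgeR 4.0.16 (R 4.3.3), whose quasi-likelihood test of set B over set A ran on all genes past its expression filter, with TMM and Benjamini-Hochberg adjustment at 0.05. The fit was tested on simulated data for 8491 genes. There edgeR called 80 of 100 genes changed 4-fold and 54 of 100 changed 2-fold, with 6 false calls. DESeq2 called 89 and 69 of 100, with 50 false calls. Genes were simulated independently and the changed ones drawn from all 8491, so these rates do not give the power for the 10 members. The median standard error was 0.48 for the 10 members and 0.13 for all genes. DESeq2 1.42.0, RLE factors, no filter, a replicate block and leaving out each library were tried. Log2 values used a pseudocount of 1. Standard errors of edgeR fold changes were worked out as the absolute log2 fold change over the square root of the test's F statistic. Python 3.11.15, pandas 2.3.3, scipy 1.17.1 and matplotlib 3.10.9 were used. Poisson intervals cover counting error only.

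The genes named are the 10 members, the 15 genes nearest to the enzymes and the listed genes. Members and lists were chosen with earlier results of these data known. No sequence was read for this work.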

Additional observations from a re-analysis of the deposited data

Results flagged for a closer look

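Over 108 sets of 6 library values (levels of the genes described and shares of the enzymes), 17 had a library whose gap to its nearest neighbour exceeded, as a fraction of the whole range, Dixon's 95% critical value for 6 samples. Chance gives about 1 in 20, or 5.4 of 108, and the values are not independent. None was one of the 10 ecdysone synthesis genes, and neither the enzyme sum nor any enzyme share was among them. A pair of regulators of ecdysone synthesis were. In set A replicate 1, Hr4 reached 1.72 TPM and was at most 0.31 TPM elsewhere, a gap of 0.849 of the range, and Hr3 at 1.57 TPM against at most 0.52 TPM, a gap of 0.739. Among sterol supply genes and electron donors, Npc2b was high in set B replicate 2 (gap 0.83) and Fdx1 low in set A replicate 3, at 11.2 TPM against 12.8 to 13.8 TPM (gap 0.635).

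The other gaps belonged to markers of other tissues. In set B replicate 2 the salivary gland genes Sgs3, Sgs7 and Sgs8 had gaps of 0.996, 0.984 and 0.981, and gl had 4.12 TPM against at most 0.11 TPM elsewhere, a gap of 0.983. In set A replicate 3 the fat body genes Fbp1, Lsp1beta and Lsp2 had gaps of 0.989, 0.946 and 0.958. In set B replicate 3 the muscle genes Act57B, Mhc and Mlc2 had gaps of 0.762, 0.634 and 0.641, and in set B replicate 1 the neural genes Syt1, elav and nSyb had gaps of 0.909, 0.874 and 0.865.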

How the results depend on the processing

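The number of all genes called between sets was 0 under each edgeR setting, 22 with DESeq2 on the filtered genes and 33 with DESeq2 without the filter, and 0 of the 10 ecdysone synthesis genes were called under any of the 11 alternatives. Of 110 alternative fold changes of these genes, 97 kept their sign and 13 did not, with a smallest adjusted p of 0.607. With the replicate block, the log2 fold change, set B over set A, was 0.39 for dib and 0.13 for Npc1a, and the cause of these changes of sign was not tested. The labels do not say that a replicate number marks shared larvae, a batch or a day, deviations of same-numbered libraries correlated at -0.18, -0.30 and 0.37, and the block left the count of calls at 0. Leaving out each library in turn, log2 fold changes ranged from -0.042 to 0.93 for nvd, -0.021 to 0.84 for phm, -0.76 to 1.25 for dib, -0.12 to 1.06 for sad, -0.28 to 0.83 for tor and -0.54 to 0.81 for Npc1a. Of the 15 nearest genes, 3 were found again with Pearson correlation as likeness, and 6 to 13 when a library was left out (6 without set A replicate 1, 9 without set A replicate 3 and 8 without set B replicate 3). The 60 alternative mean levels stayed within 1 SD, the 80 alternative spreads within 1.5 times, and 41 of 42 alternative share spreads too.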

Other observations

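The share of dib and the ratio of Start1 to the enzyme sum, compared after their values were seen, had the same order over the 6 libraries: lowest in replicate 3 of set A, followed by replicates 1 and 3 of set B, replicate 2 of set A, replicate 2 of set B and, highest, replicate 1 of set A. Start1 was at 8.19%, 11.7% and 11.3% of the enzyme sum in set B replicates 1, 2 and 3 and at 15.4%, 11.4% and 4.96% in set A. Both genes overlap a gene on the opposite strand, and both ratios share the enzyme sum as denominator. Npc1a had another order, with its ratio lowest in set B replicate 3 at 8.49% and highest in set A replicate 1 at 13.8%.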
